A study of Mus musculus with 8 samples.

Results

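Flavin-containing monooxygenases and their Fmo-like relatives were described in the liver and in the epididymal fat pad, a white adipose tissue (eWAT), of Crtc1-/- and Crtc1+/+ mice. The members were taken by gene symbol: the family genes Fmo1, Fmo2, Fmo4, Fmo5, Fmo6 and Fmo9, and the predicted Fmo-like genes Gm4846 and Gm4847. Of these 8 genes, 6 were measured among 19348 genes, and Fmo9 and Gm4847 were not analysed here. The Fmo-like genes were selected on their high levels in eWAT labelled Crtc1+/+, so the eWAT genotype difference of every member is given as a description with no test. RNA-seq covered 4 groups of 2 libraries each, liver and eWAT, labelled Crtc1-/- or Crtc1+/+. All 8 libraries came from male C57BL/6 mice aged 12 weeks, fed a normal diet and fasted for 16 h. The Crtc1-/- mice carried a whole-body CRISPR/Cas9 deletion directed at exons 2 to 4 of Crtc1, a CREB coactivator, so the deletion was not limited to adipocytes or hepatocytes, and the Crtc1+/+ mice were their littermates.

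Flavin-containing monooxygenases sit in the membrane of the endoplasmic reticulum, carry FAD, take electrons from NADPH, and add 1 oxygen atom to nitrogen or sulfur atoms of drugs, dietary amines and small sulfur compounds. Fmo1 oxidizes many such substrates and can turn hypotaurine into taurine. Fmo5 acts mainly as a Baeyer-Villiger oxidase and is abundant in liver, while Fmo2 is best known from lung. Fmo4 and Fmo6 are less well characterized, and no role is assigned here to Gm4846.

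Library totals lay between 16560070 and 19721464 counts, and 3 counts, the floor used here, corresponded to between 0.145 and 0.208 CPM (counts relative to the library total, with the TMM scaling of edgeR within a tissue). Crtc1, the targeted gene, measured 11.7 and 9.86 CPM in the liver pair labelled Crtc1+/+ and measured 22.1 and 18.0 CPM in the liver pair labelled Crtc1-/-. In eWAT it measured 32.6 and 33.7 CPM for Crtc1+/+ and 58.5 and 33.6 CPM for Crtc1-/-. Thus in neither tissue was Crtc1 lower with the Crtc1-/- label, and the direction of every genotype difference below rests on the labels. A count over the whole gene can include reads from exons outside the deletion. The tissue labels were checked with fixed marker lists. The 14 hepatocyte markers (Alb, Apoa1 and Ahsg the most abundant) made up 20.3% to 24.1% of the counts in liver, 10.7% in eWAT replicate 2 labelled Crtc1-/-, and 0.0793% to 0.656% in the other eWAT libraries. The 19 measured epididymis markers of a list of 20 (Gpx5, Lcn8 and Cst11 the most abundant) made up 7.89% and 9.27% of the counts in eWAT labelled Crtc1+/+. They made up 0.00385% and 0.00141% with the Crtc1-/- label and 0.000215% to 0.00820% in liver. The 11 adipocyte markers (Fabp4, Cfd and Pnpla2 the most abundant) made up 0.257% and 0.397% in the eWAT pair labelled Crtc1+/+ and 4.66% and 2.22% in the pair labelled Crtc1-/-. The eWAT groups thus differed in epididymis and adipocyte markers. Hepatocyte markers overlapped between the groups and stood apart only in eWAT replicate 2 labelled Crtc1-/-. The part of all these markers in the results below was not tested except where a value is given.

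Most members lie together on chromosome 1. In the GENCODE annotation of GRCm38, all on the minus strand, Fmo4 spans chr1:162793188-162813972, Fmo1 chr1:162829561-162866610, Fmo2 chr1:162874317-162898726 and Fmo6 chr1:162916551-162937515. A second cluster on the same strand holds Gm4846 (chr1:166483613-166497588), Gm4847 (chr1:166628971-166647693) and Fmo9 (chr1:166662055-166681845). Fmo5 stands apart on the plus strand of chromosome 3, at chr3:97628804-97655282. The coding sequences were 1596 to 1680 nt long. Their nucleotide identity was 60.3% to 68.4% for all pairs except Gm4846 and Gm4847, the closest pair at 80.4%. At most 1.42% of the 50-base stretches of a member's transcript (Gm4846) also occurred in a transcript of another gene, and none did for Fmo1, Fmo2, Fmo4 and Fmo9. Of 36 annotated neighbours within 250 kb of a member, 16 of them protein-coding, 15 were measured. Between the genotypes, edgeR's quasi-likelihood test called 0 of the 11 tested in liver (2 at an unadjusted p under 0.05, 1 by DESeq2). In eWAT it called 0 of the 13 tested (1 at an unadjusted p under 0.05, 2 by DESeq2). Over all genes, edgeR called 10 of 11707 in liver and 1875 of 15391 in eWAT. At an unadjusted p under 0.05 there were 2029 and 5130, and DESeq2 called 311 and 4620.

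The 250 bases before the annotated start are shown for Gm4846, whose level differed most between libraries, and for Fmo2, whose level differed least among the 4 well-measured genes. Sequences are from RefSeq (GRCm38.p6), 5′ to 3′ on the minus strand, chr1:166497589-166497838 for Gm4846 and chr1:162898759-162899008 for the upstream start of Fmo2. Capitals mark the searched motifs on either strand, TATAAA (the core promoter box), CCAAT (the binding box of NF-Y), AGAACA (half-site of the androgen and glucocorticoid receptors), AGGTCA (nuclear receptor half-site) and GTTAAT (HNF1 half-site).
Gm4846: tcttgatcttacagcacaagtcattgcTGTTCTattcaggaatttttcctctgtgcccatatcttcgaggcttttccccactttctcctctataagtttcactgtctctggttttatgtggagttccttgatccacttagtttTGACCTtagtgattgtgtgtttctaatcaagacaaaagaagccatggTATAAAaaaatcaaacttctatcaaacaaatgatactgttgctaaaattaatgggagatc
Fmo2: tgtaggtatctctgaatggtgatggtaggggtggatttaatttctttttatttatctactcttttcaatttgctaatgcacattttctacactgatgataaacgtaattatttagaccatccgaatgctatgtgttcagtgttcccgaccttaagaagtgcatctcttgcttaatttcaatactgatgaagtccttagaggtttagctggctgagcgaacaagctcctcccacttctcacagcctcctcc
The Gm4846 window held AGAACA and AGGTCA, both read on the opposite strand, and TATAAA, with no overlap between them. The Fmo2 window shown held none of the searched motifs. The window before the other annotated start of Fmo2, not shown, held AGAACA and AGGTCA and overlapped an Fmo2 exon. Among 32851 windows of the same length, 16.1% held AGAACA, 14% AGGTCA, 12.4% TATAAA, 33.8% CCAAT and 6.43% GTTAAT, so single matches are frequent and only describe the letters. RefSeq draws the gene span of Gm4846 further upstream than GENCODE, past this window. No window is listed for Fmo1.

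Levels were compared between genes as FPKM, which corrects for transcript length. In liver, Fmo5 and Fmo1 supplied most of the summed level of the 6 measured members. Fmo5 was at 231 and 313 FPKM in liver labelled Crtc1+/+ and at 232 and 220.0 FPKM in liver labelled Crtc1-/-. Fmo1 was at 105 and 132 FPKM in liver labelled Crtc1+/+ and at 121 and 142 FPKM in liver labelled Crtc1-/-. The order of these highest-expressed genes was the same in all 4 liver libraries, where Fmo5 supplied 59.2% to 69.5% and Fmo1 29.3% to 38.1% of the summed FPKM of the 6 measured members. Fmo4 lay between 2.77 and 4.24 FPKM and Fmo2 between 1.60 and 6.21 FPKM in liver, and these ranges overlapped, so the order of this pair was not resolved. Fmo6 had 1 count in 1 liver library and 0 in the other 3, where 0 counts allow up to 3. Gm4846 had 8 counts in liver replicate 1 labelled Crtc1-/- and at most 1 in each other liver library. That library also had the highest share of epididymis markers among the liver libraries, and its Gm4846 counts were 5.13 per 1000 epididymis marker counts.

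In eWAT the order of the genes differed between the labelled genotypes. Gm4846 was at 84.5 and 443 FPKM in eWAT labelled Crtc1+/+, above every other member there. Fmo1 followed at 17.1 and 16.2 FPKM, and Fmo5 at 14.2 and 7.80 FPKM. Fmo2 was at 5.97 and 10.2 FPKM, which overlapped Fmo5. Fmo4 was at 0.40 and 0.13 FPKM, and Fmo6 at 0.03 FPKM in both libraries. In eWAT labelled Crtc1-/-, Fmo1 was highest in replicate 1 (59.0 FPKM, against 16.6 for Fmo5), whereas Fmo5 was highest in replicate 2 (144 FPKM, against 116 for Fmo1). Fmo2 was at 5.94 and 6.67 FPKM there, Fmo4 at 0.40 and 2.36 FPKM, and Fmo6 at 0.13 and 0.16 FPKM. Gm4846 was listed at 0 FPKM in replicate 1 and at 0.04 FPKM in replicate 2.

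**Figure D1:**
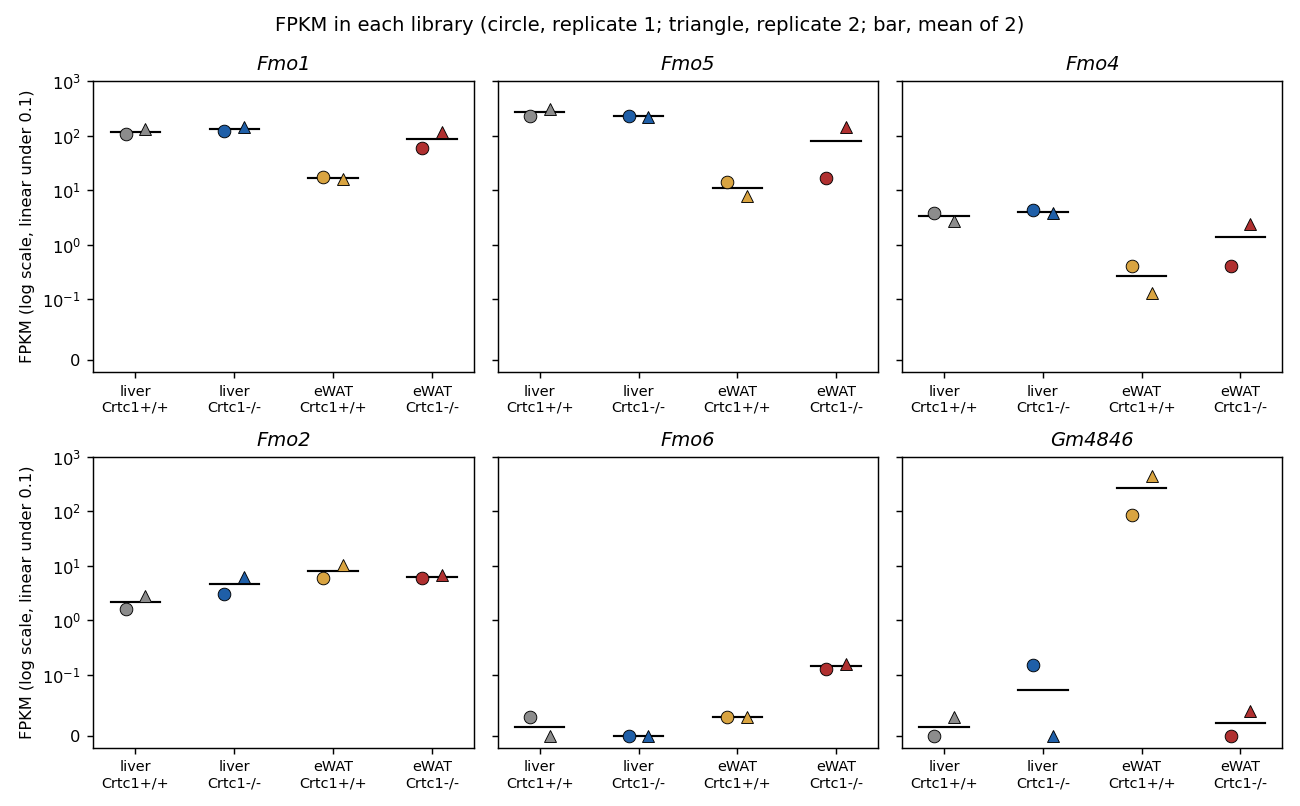
FPKM of each measured member (log axis, linear under 0.1) in the 8 libraries by labelled group; circles are replicate 1, triangles replicate 2 and bars the mean of 2. Fmo1, Fmo5 and Fmo4 were higher in liver than in eWAT labelled Crtc1+/+, Fmo2 stayed between 1.60 and 10.2 FPKM, and Gm4846 was above 1 FPKM only in eWAT labelled Crtc1+/+.

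The shares of the summed level followed this order. Gm4846 supplied 69.1% and 92.8% of the summed FPKM of the members in eWAT labelled Crtc1+/+. Fmo1 supplied 71.9% and Fmo5 20.2% in eWAT replicate 1 labelled Crtc1-/-, while Fmo5 supplied 53.5% and Fmo1 43.1% in replicate 2. The make-up of replicate 2 was thus between that of replicate 1 and that of the liver libraries.

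**Figure D2:**
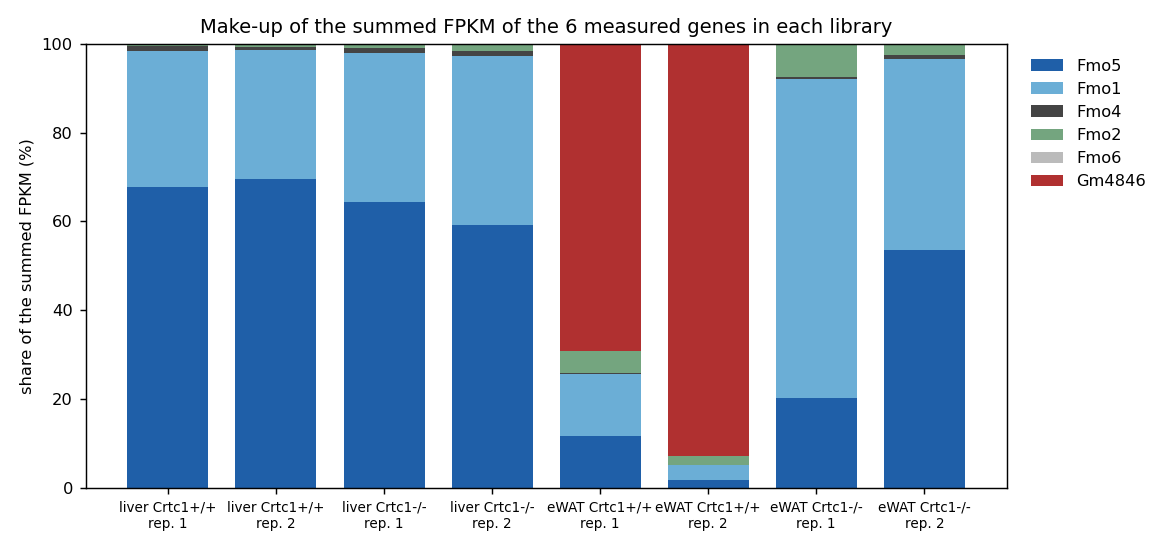
Share of the summed FPKM (percent, vertical axis from 0 to 100) that each of the 6 measured members supplied in each library. Gm4846 supplied 69.1% and 92.8% in eWAT labelled Crtc1+/+, and Fmo5 supplied 59.2% to 69.5% in the liver libraries.

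The genotype comparison in liver was tested, since the Fmo-like genes were selected on eWAT values. Earlier results of these data were known when the members were chosen. In edgeR's quasi-likelihood test with Benjamini-Hochberg adjustment, 0 of the 4 members that passed the filter on low counts were called at the 0.05 threshold, against 0.0854% of all 11707 genes tested (10 genes, and 2029 at an unadjusted p under 0.05). At an unadjusted p under 0.05, 1 of the 4 members passed, and DESeq2 and limma called 0. Fmo1, Fmo4 and Fmo5 overlapped between the groups. In bulk tissue, fewer cells of a type and less RNA per cell cannot be told apart. Fmo2 measured 6.57 and 11.8 CPM in the liver pair labelled Crtc1+/+ and measured 12.2 and 24.4 CPM in the liver pair labelled Crtc1-/- (9.19 ± 3.70 and 18.3 ± 8.65, SD, n = 2 each). Both libraries labelled Crtc1-/- were above both labelled Crtc1+/+, although the nearest values differed little. The log2 fold change of Fmo2 was 0.99 (standard error, SE, 0.40, adjusted p = 0.260 by edgeR), which did not pass the threshold. Groups did not overlap for 1 of the 4 members, against 52.1% of all genes. The size of the Fmo2 difference moved with single libraries. Without liver replicate 2 labelled Crtc1-/- the log2 fold change of Fmo2 was 0.40 (adjusted p = 0.672 by edgeR), without Crtc1+/+ replicate 1 it was 0.62 (adjusted p = 0.705) and without Crtc1+/+ replicate 2 it was 1.46 (adjusted p = 0.679). Without liver replicate 1 labelled Crtc1-/- it was 1.41 (adjusted p = 0.00111 by edgeR), and the same fit called 1507 genes in all. Each such fit leaves 1 library in a group and takes the spread from the other group, so the lone library is assumed to vary like that group.

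Fmo1 measured 231 and 294 CPM in the liver pair labelled Crtc1+/+ and measured 262 and 300.5 CPM in the liver pair labelled Crtc1-/-, which gave 0.10 on the log2 scale (SE 0.26, adjusted p = 0.867 by edgeR). Fmo5 measured 596 and 842 CPM in the liver pair labelled Crtc1+/+ and measured 604 and 579 CPM in the liver pair labelled Crtc1-/-. The higher value was that of 1 Crtc1+/+ library, and the log2 fold change was -0.28 (SE 0.27, adjusted p = 0.611 by edgeR). Fmo4 was at 8.63 and 6.45 CPM and at 8.18 and 7.47 CPM, which gave 0.05 on the log2 scale (SE 0.30, adjusted p = 0.943 by edgeR). The median log2 fold change was 0.08 over the 4 members and 0.00 over all genes tested, to 2 decimals. With 2 libraries a group, an exact two-sided permutation test could not give a p below 0.333.

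In eWAT, Fmo1 was higher in both libraries labelled Crtc1-/-, Fmo4 and Fmo5 were high in 1 of them, Fmo2 was level, and Gm4846 was at the floor in that group. Fmo1 measured 32.7 and 31.9 CPM in the eWAT pair labelled Crtc1+/+ and measured 130.2 and 311 CPM in the eWAT pair labelled Crtc1-/- (32.3 ± 0.573 and 220.5 ± 128, SD, n = 2 each). The groups did not overlap, and the log2 fold change was 2.77 (SE 0.50), or 1.98 (SE 0.31) without eWAT replicate 2 labelled Crtc1-/-, with the spread then taken from the Crtc1+/+ group. Fmo5 measured 33.7 and 18.7 CPM in the eWAT pair labelled Crtc1+/+ and measured 43.8 and 476 CPM in the eWAT pair labelled Crtc1-/-. Replicate 2 was far above the other 3 libraries, and the log2 fold change of 3.31 (SE 1.16) was 0.73 (SE 0.46) without it. Fmo4 measured 0.723 and 0.259 CPM in the eWAT pair labelled Crtc1+/+ and measured 0.879 and 5.90 CPM in the eWAT pair labelled Crtc1-/-. Replicate 2 again stood apart, and the log2 fold change of 2.76 (SE 1.18) was 0.82 (SE 1.30) without it.

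The same library held the high share of hepatocyte markers. Per 1000 hepatocyte marker counts, Fmo5 had 3.64 counts in eWAT replicate 2 labelled Crtc1-/-, within the 2.49 to 3.83 of the liver libraries. Fmo4 had 0.0451 there, against 0.0294 to 0.0419 in liver, and Fmo1 had 2.37, above the 1.12 to 1.34 of the liver libraries. In eWAT replicate 1 labelled Crtc1-/-, with a hepatocyte marker share of 0.117%, the same ratios were 36.8 for Fmo5 and 109 for Fmo1. In eWAT labelled Crtc1+/+ they were 5.83 and 25.8 for Fmo5 and 5.66 and 44.0 for Fmo1. Markers of other cell types differed between the eWAT groups. Adipocyte markers were higher in both libraries labelled Crtc1-/-, as were the 8 endothelial markers, at 0.439% and 0.260% of counts against 0.0341% and 0.0340%, and the 6 macrophage markers, at 0.0758% and 0.0339% against 0.0220% and 0.0114%. The part of these cell types and of hepatocytes in the differences of Fmo1, Fmo4 and Fmo5 was not tested.

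Fmo2 measured 21.3 and 37.7 CPM in the eWAT pair labelled Crtc1+/+ and measured 24.5 and 33.2 CPM in the eWAT pair labelled Crtc1-/-. The second pair lay inside the first, with a log2 fold change of -0.03 (SE 0.41). Fmo6 had 1 count in each library labelled Crtc1+/+ and 4 and 5 counts in those labelled Crtc1-/-. Scaled to the library totals this was a ratio of 4.47, with an exact 95% interval from 0.926 to 42.6 that covers counting error only and is no test of the groups. Gm4846 had 4042 and 21285 counts in eWAT labelled Crtc1+/+ and 0 and 1 counts in eWAT labelled Crtc1-/-. Against a floor of 3 counts per library it was at least 3480-fold lower in the libraries labelled Crtc1-/-, a bound that was 1043-fold without Crtc1+/+ replicate 2 and 5916-fold without Crtc1+/+ replicate 1. The libraries labelled Crtc1+/+ themselves differed 5.67-fold in Gm4846 CPM (195 and 1104), while their epididymis marker shares were 7.89% and 9.27%. Per 1000 epididymis marker counts, Gm4846 had 2.80 counts in replicate 1 and 13.0 in replicate 2.

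Of the 5 members fitted in eWAT, 4 were more than 2-fold apart (3 up and 1 down with the Crtc1-/- label), against 46.3% of all 15391 genes, and the groups of the same number of members did not overlap, against 66.6% of all genes. Without eWAT replicate 2 labelled Crtc1-/-, 2 members were more than 2-fold apart. The median log2 fold change was 2.76 over these members and -0.05 over all genes. Because these values took part in the choice of members, nothing is read from the counts. Whether the genotype difference itself differed between eWAT and liver was not tested.

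**Figure D3:**
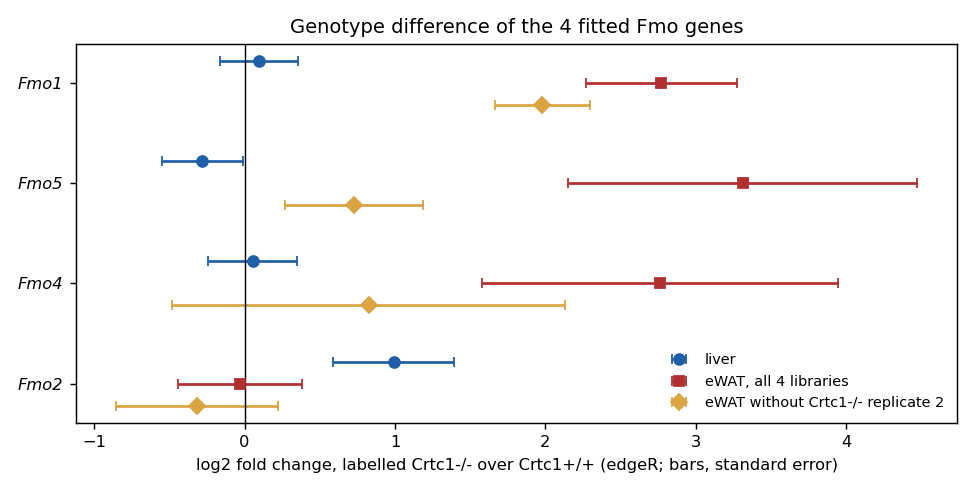
Log2 fold change of the libraries labelled Crtc1-/- over those labelled Crtc1+/+ for Fmo1, Fmo5, Fmo4 and Fmo2. Values are for liver, for eWAT, and for eWAT without Crtc1-/- replicate 2. Bars are standard errors derived from edgeR's log2 fold change and F statistic. Leaving out that library moved Fmo5 from 3.31 to 0.73 and Fmo1 from 2.77 to 1.98, while the liver values lay between -0.28 and 0.99.

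**Figure D4:**
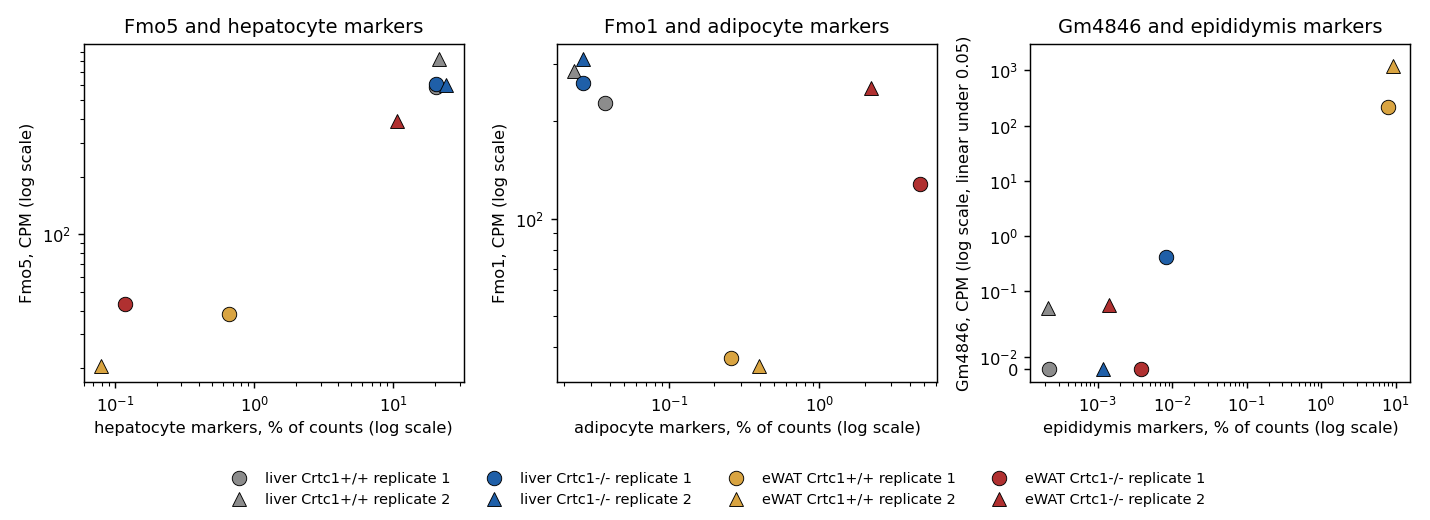
Marker shares (percent of counts, log axis) against the CPM by library total (log axis, linear under 0.05 for Gm4846) of Fmo5, Fmo1 and Gm4846 in each library; colours are groups, circles replicate 1 and triangles replicate 2. In eWAT replicate 2 labelled Crtc1-/- hepatocyte markers were at 10.7% and Fmo5 lay between the other eWAT libraries and liver, and Gm4846 was high in the libraries with 7.89% and 9.27% epididymis markers.

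Tissues were compared within each labelled genotype for the 4 genes taken by family name alone. Among the libraries labelled Crtc1+/+, edgeR's quasi-likelihood test with Benjamini-Hochberg adjustment called 3 of these 4 genes, against 59.8% of all 15034 genes tested. Fmo5 was lower in eWAT than in liver by a log2 fold change of -6.08 (SE 0.51, adjusted p = 0.000507). Fmo4 was lower by -5.20 (SE 0.60, adjusted p = 0.00122 by edgeR) and Fmo1 by -4.32 (SE 0.29, adjusted p = 0.000336). In all 3 genes both eWAT libraries were below both liver libraries. Fmo2 did not pass, at 0.38 (SE 0.41, adjusted p = 0.456 by edgeR). Over all genes the median log2 difference was 0.48, and it was 1.96 when libraries were scaled by their totals alone, a scaling under which the differences were -4.58 for Fmo5, -3.72 for Fmo4, -2.84 for Fmo1 and 1.86 for Fmo2. Fmo2 then passed the threshold (adjusted p = 0.00691 by edgeR) but remained near that median.

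Among the libraries labelled Crtc1-/-, 0 of the 4 genes were called, against 18.5% of all 13458 genes tested by edgeR. Fmo5 differed by -2.41 (SE 1.18, adjusted p = 0.186), Fmo4 by -2.45 (SE 0.92, adjusted p = 0.114) and Fmo1 by -1.60 (SE 0.60, adjusted p = 0.111). For these genes both eWAT libraries were still below both liver libraries on the scale of this fit. Fmo2 was at -0.61 (SE 0.43, adjusted p = 0.320). At an unadjusted p under 0.05 by edgeR, 2 of the 4 passed, against 5619 of all 13458 genes. DESeq2 called 3 of the 4, against 6510 of all 13458 genes. Without eWAT replicate 2 labelled Crtc1-/- the differences were -5.17 for Fmo5, -4.55 for Fmo4 and -2.53 for Fmo1. Without replicate 1 they were -1.52 for Fmo5, -1.61 for Fmo4 and -1.06 for Fmo1. In both fits the lone eWAT library is assumed to vary like the liver libraries. Whether the tissue difference itself differed between the labelled genotypes was not tested.

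Genes that supply or share the chemistry of these enzymes were taken from fixed lists. In liver, edgeR's quasi-likelihood test called 0 of 10 genes of flavin and NADPH supply, 0 of 22 other flavoenzymes and 0 of 7 genes of taurine synthesis. At an unadjusted p under 0.05 there were 1, 7 and 3, and DESeq2 called 1, 2 and 2. Of all 11707 genes tested in liver, edgeR called 10, 2029 had an unadjusted p under 0.05, and DESeq2 called 311. In eWAT, where edgeR called 12.2% of all genes, it called 1 of 10 genes of flavin and NADPH supply, higher with the Crtc1-/- label. DESeq2 called 5 of the 10, against 4620 of all 15391 genes. The gene called by edgeR was Por, the reductase that passes electrons from NADPH to cytochromes P450. It was at 523 and 885 CPM against 142 and 125 CPM (log2 fold change 2.40, standard error 0.42, adjusted p = 0.0327 by edgeR). Its groups did not overlap. The NADPH-producing enzymes G6pdx (0.31, adjusted p = 0.692 by edgeR), Pgd (1.38, adjusted p = 0.106), Me1 (1.44, adjusted p = 0.0522), Idh1 (1.61, adjusted p = 0.0624) and Mthfd1 (0.66, adjusted p = 0.564) did not pass. The median log2 fold change of the list was 1.02, against -0.05 over all genes. No list gene called in eWAT held under every setting, since edgeR called 0 of all 15391 genes with the replicate number as a block (5418 at an unadjusted p under 0.05), and 0 without Crtc1+/+ replicate 1 or without Crtc1+/+ replicate 2 (3436 and 2565 at an unadjusted p under 0.05).

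Of 23 other flavoenzymes tested in eWAT, 2 rose and 1 fell by edgeR. DESeq2 called 9 of the 23, against 4620 of all 15391 genes. Xdh, the xanthine oxidoreductase of purine breakdown, was at 217 and 205 CPM against 26.0 and 30.7 CPM (log2 fold change 2.90, adjusted p = 0.0169 by edgeR). Aox1, an aldehyde oxidase, was at 60.8 and 53.5 CPM against 5.25 and 6.59 CPM (3.27, adjusted p = 0.0170). Both were high in each library labelled Crtc1-/-, unlike Fmo5. Sqle, the squalene epoxidase of cholesterol synthesis, was at 10.7 and 16.0 CPM against 41.7 and 66.6 CPM (-2.02, adjusted p = 0.0434 by edgeR). The median of the list was 0.94, or 0.18 without eWAT replicate 2 labelled Crtc1-/-, when 2 genes rose and 1 fell.

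Of 7 genes tested for taurine synthesis, the pathway to which Fmo1 contributes, 3 rose in eWAT labelled Crtc1-/- by edgeR. DESeq2 called 5 of the 7, against 4620 of all 15391 genes. Csad, which makes hypotaurine, was at 164 and 261 CPM against 54.0 and 65.9 CPM (log2 fold change 1.82, adjusted p = 0.0403 by edgeR). The pantetheinases Vnn1 (3.37, adjusted p = 0.0208) and Vnn3 (4.30, adjusted p = 0.0173), which release cysteamine, also rose. Ado, which turns cysteamine into hypotaurine, did not pass (-1.35, adjusted p = 0.0581 by edgeR), although both libraries labelled Crtc1-/- were below both labelled Crtc1+/+. Cdo1, which opens the route from cysteine, was at 807 and 1222 CPM against 675 and 929 CPM (0.34, adjusted p = 0.604 by edgeR). The median of the list was 1.82, or 0.75 without replicate 2, when 2 genes rose. The marker shares given above differed between the same groups, and their part in the list genes was not tested.

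The genes whose log2(FPKM + 1) followed each member most closely over the 8 libraries were named among 12121 genes with a mean of at least 1 FPKM. The 8 points share tissues and labels, so they are not independent, and no p is given. Fmo5 was most like Phyh (Pearson r = 0.999), Dio1 (0.998) and Sephs2 (0.997), and Fmo4 most like Gm7969, Gchfr and Lhpp (0.994 each). Dio1, for example, was at 3.29 FPKM in eWAT replicate 1 labelled Crtc1-/- and at 44.0 in replicate 2, and Phyh at 78.2 and 568. Fmo1 was most like Idh1 (0.993), Cd302 (0.987) and Gsto1 (0.987), which stood above eWAT labelled Crtc1+/+ in both libraries labelled Crtc1-/-. Gsto1, a glutathione transferase, was at 121 and 193 FPKM there, against 30.8 and 20.9 FPKM. Fmo2 was most like Rab14 (0.990), Rab9 (0.980) and Zfp91 (0.975). Gm4846 was most like Myo3b (0.9999), Elovl4 (0.9998) and Pate3 (0.999), which were at or under 0.05 FPKM in the 6 libraries outside eWAT labelled Crtc1+/+. Pate3 was listed at 0 in those 6 libraries and at 6.05 and 15.9 FPKM in eWAT labelled Crtc1+/+. Among the members, Fmo5 followed Fmo4 (0.976) and Fmo1 (0.925). Gm4846 had r = -0.94 with Fmo1. It had at most 8 counts outside eWAT labelled Crtc1+/+, so this r restates the high libraries used to choose it.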

How the data were processed

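RNA was extracted from a piece of liver or eWAT and sequenced at BGI. The authors deposited estimated counts per gene, not normalized, and FPKM, scaled by transcript length and library total. The submitters' processing notes name HISAT, Bowtie2 and GRCm38.p6. Libraries held at least 16560070 counts, so counting error was small for abundant members but large for Fmo6 and for Fmo4 in eWAT. P-values measure the spread between 2 libraries a group. Each standard error is the size of the log2 fold change over the square root of edgeR's F statistic.

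Counts were rounded, filtered by filterByExpr, scaled by TMM within the 4 libraries compared and tested by edgeR 4.0.16's quasi-likelihood test (R 4.3.3) with p-values adjusted by Benjamini-Hochberg across every gene tested. Alternatives were DESeq2 1.42.0, limma 3.58.1 on quantile-normalized log2(FPKM + 1) or log2(FPKM + 0.1), other filters and scalings, 1 fit of all 8 libraries, a replicate block, and each library left out, where the arm left with 1 library is assumed to vary like the other. Names in the text were the members, list genes called in a genotype contrast or most abundant, marker genes most abundant in their list, and the 3 genes most like each member. Members, lists and rules were chosen with earlier results of these data known. Me1, Mthfd1 and Ado were named after their values were seen. Fibroblast markers took 0.620% and 0.175% of eWAT counts with the Crtc1-/- label, against 0.414% and 0.284% with Crtc1+/+. Another gene of the family is not reported here. Sequences came from RefSeq and GENCODE tables (Python 3.11.15, Biopython 1.88).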

Additional observations from a re-analysis of the deposited data

How the results depend on the processing

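The 3 members called between tissues among the libraries labelled Crtc1+/+ (Fmo1, Fmo4 and Fmo5) passed under every alternative run, and no member was called in liver under any alternative except 1 left-out library. Leaving out each library gave 0 to 1 called members in liver, 2 to 4 members more than 2-fold apart in eWAT (2 without eWAT replicate 2 labelled Crtc1-/-) and 0 to 3 called between tissues among the libraries labelled Crtc1-/-. In the last comparison DESeq2 called 3 members and limma on log2(FPKM + 1) called 1, against 0 by edgeR. Without eWAT replicate 2 labelled Crtc1-/-, an alternative chosen after seeing the data for the lists, 2 genes of flavin and NADPH supply were called in place of 1. Some log2 fold changes changed sign. With a library left out, Fmo1 in liver ranged from -0.079 to 0.27, Fmo4 in liver from -0.15 to 0.27, and Fmo2 between tissues (Crtc1+/+) from -0.084 to 0.86; Fmo2 was at -0.031 and -0.054 there in limma with a pseudocount of 1 and 0.1, and at 0.46 between tissues (Crtc1-/-) with library-size scaling. Fmo2 in the eWAT genotype comparison, at -0.033, ranged from -0.36 to 0.46 with a library left out and was above 0 with limma, with no filter, without epididymis markers in the scaling and with the replicate block. The causes were not tested. Whether the same number marks 1 mouse in liver and eWAT is not stated in the labels, and the correlations of deviations of same-numbered libraries lay between -0.03 and 0.23, so the block was kept as an alternative. With the replicate block, 0 members were called in liver, 3 and 0 between tissues, and 4 were more than 2-fold apart in eWAT, as without it, while the genes called changed from 10 to 82 in liver, from 1875 to 0 in eWAT and from 2485 to 1296 between tissues (Crtc1-/-), so that every list gene called in eWAT was lost. Counts over all genes depended on the method: in liver 311 by DESeq2, 0 by limma, 301 with no filter, 0 in 1 fit of all libraries and 1 to 1507 with a library left out; in eWAT 4620 by DESeq2, 3861 in 1 fit and 0 to 3073 with a library left out; between tissues 5262 to 9534 (Crtc1+/+) with a library left out, and for Crtc1-/- 6510 by DESeq2, 5721 with library-size scaling, 4330 in 1 fit, 1658 by limma with a pseudocount of 0.1 and 0 to 6512 with a library left out. At the fold and unadjusted p threshold used in the study, edgeR counted 500 genes in liver and 2448 in eWAT; it was not applied to the members in eWAT, which have no test. A mean count of at least 50 removed Fmo4 in eWAT, and depth limits Fmo6.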
